A study of Rattus norvegicus with 10 samples.

Results

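DNA methylation near genes of mitochondrial respiration and of the mitochondrial ribosome was described in the arcuate nucleus of the rat hypothalamus, a cell group that reads circulating hormones and nutrients and sets food intake. A region belonged to the set when it lay on a numbered chromosome and the gene named for it in the authors' table, by nearest start site, had a symbol of 1 of these kinds. The kinds were subunits and assembly factors of respiratory complexes I to V (Nduf, Sdh, Uqcr, Cox, Atp5), proteins of the mitochondrial ribosome (Mrpl, Mrps), coenzyme Q synthesis (Coq), protein import (Timm, Tomm), membrane fusion (Mfn), pyruvate and isocitrate dehydrogenases and their kinases (Pdh, Pdk, Idh), fatty acid activation, entry and oxidation (Acs, Cpt, Acad) and the Chchd family. This gave 72 of 8957 regions, at 60 of 5565 gene names. No Mfn or Timm gene had a region in the set, and 1 further region with a matching name, at Pdha1 on chromosome X, was outside the rule.

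The paternal high-fat group held 5 offspring of Wistar males kept on a high-fat diet, and the paternal chow group held 5 offspring of Wistar males kept on chow. By the labels the fathers of both groups arrived at postnatal day 21, and mating ran from postnatal day 90 to 100. The mothers of both groups ate chow. The offspring themselves were moved from chow to a high-fat diet at postnatal day 35, in both groups, and the arcuate nucleus was taken at postnatal day 70, so no animal on a lifelong chow diet was among the 10. Litters had been reduced on postnatal day 2 to at most 8 pups, and the labels give neither the sex nor the litter nor the sire of an animal, so p-values measure only the spread between these samples. Methylated cytosines had been read in CpG-rich restriction fragments after bisulfite treatment (reduced representation bisulfite sequencing). The deposited value is the mean methylated fraction of a region in each animal, printed here as a level in percent. No read counts came with it, so the depth behind a level is unknown and counting error cannot be stated. The authors had selected the regions for a difference between these same animals, so the tests on them do not stand as independent evidence. The tissue is a mixture of cells, and a shift in the share of a cell type cannot be told apart from a shift in methylation within cells. Animals are called by the names of their columns, 22HFB, 22HFR, 24HFB, 26HFB and 28HFB for paternal high-fat and 2HFB, 4HFB, 6HFBB, 6HFB and 8HFB for paternal chow, and values within a group follow that order.

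Respiratory complexes I to IV pass electrons from nutrients to oxygen, complexes I, III and IV pump protons across the inner mitochondrial membrane as they do so, and complex V uses the proton gradient to make ATP. Most subunits are encoded in the nucleus, while a few are encoded in mitochondrial DNA and translated by the mitochondrial ribosome, whose own proteins are all nuclear products. In arcuate neurons, mitochondrial fuel oxidation is part of how the cells sense glucose and fatty acids. Promoters of these housekeeping genes are typically CpG islands with little methylation, bound by NRF1, by ETS factors such as GABPA and by YY1.

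The promoters of 4 genes are shown because the measured regions closest to their start sites had groups without overlap, at Ndufa9, Pdk1 and Coq9, or the largest difference of a promoter region in the ribosomal genes, at Mrps10. The table places these regions 53, 9, -14 and -4 bases from the start of the gene. Each sequence is the RefSeq promoter of assembly GRCr8, from 250 bases before to 50 bases after the start, 5′ to 3′ along the gene, with every CG in capitals.
Ndufa9: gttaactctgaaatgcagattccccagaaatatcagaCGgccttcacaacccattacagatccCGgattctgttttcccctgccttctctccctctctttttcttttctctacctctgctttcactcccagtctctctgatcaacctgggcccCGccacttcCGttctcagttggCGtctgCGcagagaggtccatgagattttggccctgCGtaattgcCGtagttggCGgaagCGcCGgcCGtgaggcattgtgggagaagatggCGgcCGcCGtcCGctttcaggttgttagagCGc
Pdk1: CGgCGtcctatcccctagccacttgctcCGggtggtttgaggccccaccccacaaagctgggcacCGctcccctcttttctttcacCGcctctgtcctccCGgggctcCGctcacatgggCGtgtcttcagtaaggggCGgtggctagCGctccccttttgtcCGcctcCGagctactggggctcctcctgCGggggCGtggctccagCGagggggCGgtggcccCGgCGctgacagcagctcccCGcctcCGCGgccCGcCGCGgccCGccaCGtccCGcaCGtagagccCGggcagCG
Coq9: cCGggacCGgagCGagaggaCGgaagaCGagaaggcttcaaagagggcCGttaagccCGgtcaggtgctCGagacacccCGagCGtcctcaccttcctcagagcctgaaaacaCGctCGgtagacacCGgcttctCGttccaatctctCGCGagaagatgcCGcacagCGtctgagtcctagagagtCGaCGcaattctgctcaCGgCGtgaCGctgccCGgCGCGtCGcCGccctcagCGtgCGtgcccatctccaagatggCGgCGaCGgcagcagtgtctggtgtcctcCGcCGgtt
Mrps10: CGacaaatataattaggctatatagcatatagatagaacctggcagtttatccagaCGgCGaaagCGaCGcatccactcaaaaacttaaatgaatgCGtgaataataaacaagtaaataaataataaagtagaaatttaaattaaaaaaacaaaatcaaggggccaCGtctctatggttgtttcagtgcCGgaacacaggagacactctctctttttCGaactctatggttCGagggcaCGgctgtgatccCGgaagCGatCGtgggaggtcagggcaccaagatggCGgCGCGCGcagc
These windows lie at chr4:161374121-161374420 on the minus strand for Ndufa9, chr3:77113264-77113563 on the plus strand for Pdk1, chr19:10185887-10186186 on the minus strand for Coq9 and chr9:21122404-21122703 on the minus strand for Mrps10, all in GRCr8. The build of the deposited coordinates is not given in the sources used here, so which of the printed CG were measured was not established. They hold 17 CG at Ndufa9, 30 at Pdk1, 35 at Coq9 and 18 at Mrps10.

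Promoter sequences were found for 48 of the 60 genes, 49 sequences in all because Mrpl14 has more than 1 start. Their median was 21 CG, between 2 at Coq8a and 41 at Coq10a, against a median of 7 over all 33469 promoters of the RefSeq table. A RefSeq start need not be the start that the authors used. The Mrps6 window holds 3 CG, but the region placed 27 bases before its start has 23 CpGs by the deposited count, which may take both strands. Some windows may therefore be other promoters than those measured. The motif letters searched on both strands were GCGCANGCG for NRF1, CCGGAAG for ETS factors and AAGATGGC for YY1. NRF1 letters were in 9 promoters (18.4%, against 5.8% of all promoters), ETS letters in 15 (30.6%, against 8.75%) and YY1 letters in 8 (16.3%, against 3.17%). At least 1 of the 3 was in 55.1% of these promoters and in 15.7% of all. These sets are unlike. A gene counted here only with a measured region of at least 10 CpGs, which the promoters of the whole RefSeq set did not need. The NRF1 and ETS letters hold CG themselves. Whether the contrasts belong to mitochondrial genes or to CpG-rich promoters in general was not tested. Of the printed sequences, Ndufa9 holds the YY1 letters from 10 bases after its start, Coq9 from 6 bases after and Mrps10 from 30 bases after, and Mrps10 also holds the ETS letters at its start. Pdk1 holds none of the 3. A match describes the letters only. A start on the opposite strand lay within 1000 bases of 8 of the 49 starts (16.3%, against 11% of all), among them Timm8b 96 bases from Sdhd, Ncapd2 50 bases from Mrpl51, Cyb5rl 146 bases from Mrpl37 and Cpsf7 122 bases from Sdhaf2. A region at such a start is assigned to 1 gene in the table but lies close to both.

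Most of these regions had a slightly higher level in paternal high-fat offspring, on a background of almost no methylation, and no region passed the test across animals. The mean level was higher in paternal high-fat than in paternal chow offspring at 53 of 72 regions (73.6%, against 71% of all regions) and lower at 19 (26.4%, against 29%). The median difference, paternal high-fat minus paternal chow, was 1.45 percentage points, against 1.41 over all regions. In direction and size, then, the mitochondrial regions were close to the table as a whole. With limma and Benjamini-Hochberg adjustment over all 8957 regions, 0 of 72 had an adjusted p below 0.05 (0% of all regions), and the adjusted p ran between 0.235 and 0.384.

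An unadjusted limma p below 0.05 was found for 10 of the 72 regions (13.9%, against 20.9% of all), of which 8 were higher with a paternal high-fat diet (against 16.4% of all regions) and 2 lower (against 4.52%). The unadjusted exact permutation p was below 0.05 for 12 of 72 (16.7%, against 24.8%) and its adjusted p for 0. Both unadjusted shares were below the share over all regions. The groups did not overlap at 4 regions (5.56%, against 5.15% of all), 3 higher (all regions: 3.93%) and 1 lower (all regions: 1.22%), which is near the background. The q-value of the authors' deposited table was below 0.05 for 1 region (1.39%, against 0.848%) and was 1 for 69.

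**Figure D1:**
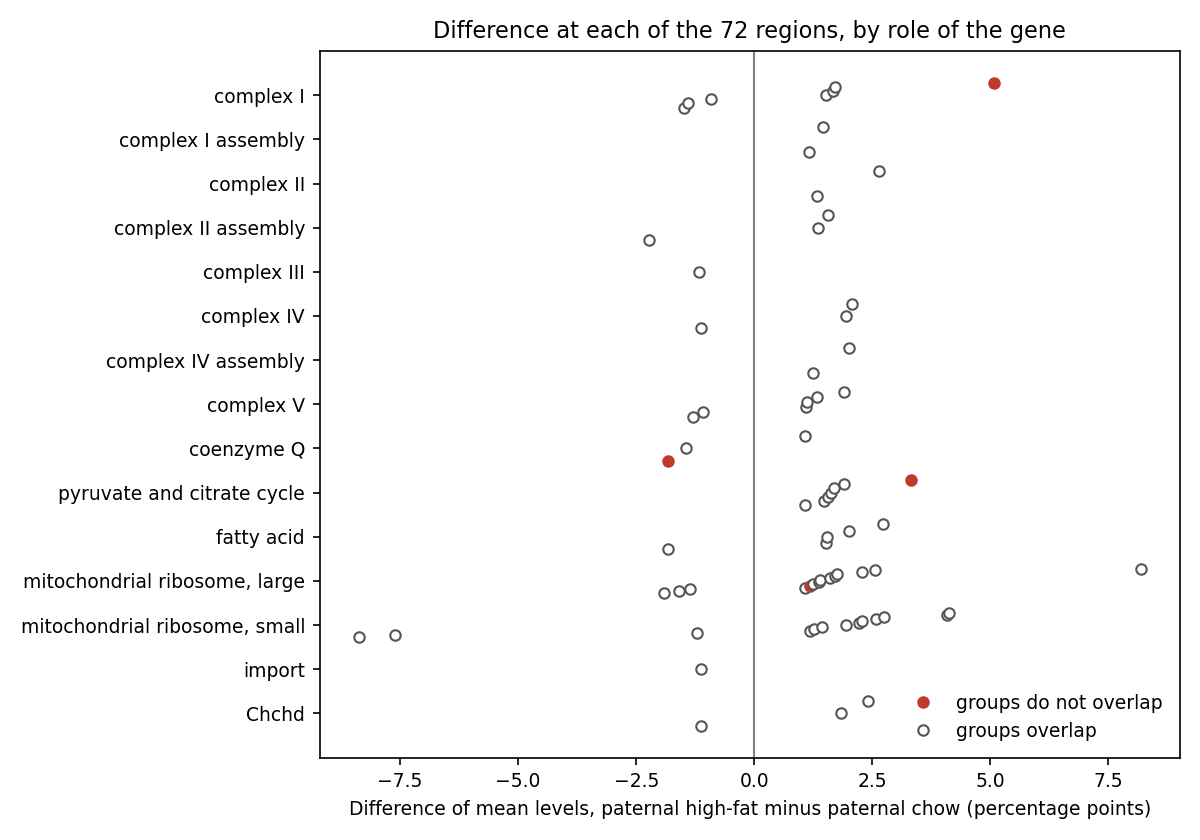
Difference of mean methylation levels, paternal high-fat minus paternal chow, in percentage points on the horizontal axis, for each of the 72 regions, in rows by the role of the gene. Filled points are the 4 regions whose groups do not overlap; 53 points lie right of 0 and 19 left of it, between -8.38 and 8.18 points.

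Complex I, which takes electrons from NADH, had 7 regions at 7 genes, with a higher mean in paternal high-fat offspring at 4 and a lower one at 3 and a median difference of 1.52 points. The higher ones were at Ndufa9, an accessory subunit near the quinone site, at the accessory subunits Ndufa12 and Ndufs5, and at Ndufv2, an iron-sulfur subunit of the NADH module. Among the lower ones, the regions at the accessory subunits Ndufb6 and Ndufb9, named after their values were seen, had differences of -1.49 points at Ndufb6 and -1.40 points at Ndufb9.

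The Ndufa9 region (chr4:159399559-159399603 in the coordinates of the file, promoter, 10 CpGs by the count of the table, which may take both strands) had levels of 5.83%, 8.10%, 1.82% and 6.36% in paternal high-fat offspring, with no value for 26HFB, against 0.909%, 0%, 0%, 1.33% and 0% in paternal chow offspring. Every paternal high-fat animal with a value lay above every paternal chow animal. The means and SDs were 5.53% ± 2.65 over 4 paternal high-fat and 0.448% ± 0.632 over 5 paternal chow animals, a difference of 5.08 points with a standard error of 1.21 (limma p = 0.00104 unadjusted, adjusted p = 0.235; exact permutation p = 0.00794). It had the smallest unadjusted limma p of the 72 regions, and was the region with a q below 0.05 in the authors' deposited table, 0.0049. The authors' Mann-Whitney p here was 1.87e-07, while an exact test of 4 against 5 animals allows none below 0.00794. Its units were therefore not the animals, and the deposited q does not stand as a test across animals. The limma fit uses the 9 animals with a value here.

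The Ndufv2 region lay in intergenic sequence 26446 bases from the start named for it, and averaged 2.56% ± 1.53 in paternal high-fat and 0.848% ± 0.515 in paternal chow offspring (SD, n = 5 each). Both regions at complex I assembly factors were higher. The one at Ndufaf4, an early assembly factor, averaged 2.57% ± 1.57 in paternal high-fat and 1.10% ± 1.02 in paternal chow offspring (SD, n = 5 each), a difference of 1.46 points.

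Complex II, succinate dehydrogenase, links the citrate cycle to the respiratory chain. Its 2 subunit regions, at the iron-sulfur subunit Sdhb and the membrane anchor Sdhd, were both higher in paternal high-fat offspring, and of 3 regions at its assembly factors Sdhaf2, Sdhaf3 and Sdhaf4 1 was lower. The Sdhb region in intron 1 of 7 had 3.41%, 7.27%, 1.48%, 5.22% and 0.133% in paternal high-fat offspring, against 0.541%, 0.488%, 0.367%, 1.87% and 1.08% in paternal chow offspring. The groups overlapped through 24HFB and 28HFB. The difference was 2.63 points (standard error 1.21; limma p = 0.0466 unadjusted, adjusted p = 0.235; exact permutation p = 0.0952), and 1.69 points without 22HFR. The Sdhaf3 promoter had 0%, 2.63%, 0%, 0% and 2.29% in paternal high-fat offspring, against 6.56%, 1.79%, 4.55% and 0% in paternal chow offspring, where 4HFB had no value. Its difference of -2.24 points (limma adjusted p = 0.239, on 9 animals) was -1.13 points without 2HFB.

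Complex III, which passes electrons to cytochrome c, had 1 region, at the core protein Uqcrc2. It had 0%, 0%, 0.5%, 1% and 0% in paternal high-fat offspring, against 0%, 0%, 1.15%, 0% and 6.24% in paternal chow offspring. The difference of -1.18 points rested on 8HFB alone and was 0.0122 points without it. Complex IV, cytochrome c oxidase, had 3 subunit regions, at Cox5a, Cox7a2l2 and Cox6c-ps1, and 2 at assembly factors, with only the Cox5a region lower. Cox6c-ps1 is a pseudogene by its name, and its region lay 20238 bases from its start. There the mean was 3.62% ± 1.83 in paternal high-fat and 1.54% ± 1.04 in paternal chow offspring (SD, n = 5 each), a difference of 2.07 points, or 1.37 points without 22HFR.

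Of the complex IV assembly factors, Cox17, a copper chaperone, averaged 2.40% ± 1.09 in paternal high-fat and 1.15% ± 0.649 in paternal chow offspring (SD, n = 5 each). Cox10, which farnesylates heme for cytochrome c oxidase, had 1.11%, 0.219%, 7.75%, 2.94% and 3.32% in paternal high-fat offspring, against 2.08%, 1.09%, 1.42%, 0.666% and 0% in paternal chow offspring. The groups overlapped, and the Cox10 difference of 2.02 points was 0.845 points without 24HFB.

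Complex V, the ATP synthase, had 6 regions at 5 genes, 4 higher and 2 lower, all with differences under 2 points. They lay at the c ring genes Atp5mc2 and Atp5mc3, at the epsilon subunit gene Atp5f1e, and at Atp5me and Atp5pd, subunits e and d. The largest, 7626 bases from the start of Atp5pd, averaged 3.42% ± 1.92 in paternal high-fat and 1.53% ± 0.923 in paternal chow offspring (SD, n = 5 each; limma adjusted p = 0.235).

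Coenzyme Q carries electrons from complexes I and II to complex III, and of the 3 regions at genes for its synthesis or handling 2 were lower in paternal high-fat offspring. The promoter region of Coq9, a lipid-binding protein of the synthesis complex, had 0%, 0.395%, 0.275%, 0.207% and 0% in paternal high-fat offspring, against 1.84%, 4.49%, 1.30%, 0.699% and 1.74% in paternal chow offspring (chr19:10596854-10596875 in the coordinates of the file, 10 CpGs in a span of 21 bases). Every paternal high-fat animal lay below every paternal chow animal. The means were 0.176% ± 0.174 in paternal high-fat and 2.01% ± 1.45 in paternal chow offspring (SD, n = 5 each), a difference of -1.84 points with a standard error of 0.640 (limma p = 0.0123 unadjusted, adjusted p = 0.235; exact permutation p = 0.00794, the smallest that 5 against 5 animals allow). Without 4HFB it was -1.22 points. The region at Coq8a, a kinase-like protein of the same pathway, was lower by 1.45 points and the one at Coq10a, which binds coenzyme Q, higher by 1.07 points; both were named after their values were seen.

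All 7 regions at the 5 genes of pyruvate and isocitrate oxidation had a higher mean in paternal high-fat offspring, with differences of 1.07 to 3.32 points. These genes were Pdk1, a kinase that switches off pyruvate dehydrogenase, the NADP-linked isocitrate dehydrogenases Idh1 in the cytosol and Idh2 in mitochondria, and Idh3a and Idh3b, subunits of the citrate cycle enzyme. The count has no test of its own, and 71% of all regions were higher. At the Pdk1 promoter (chr3:58530847-58530911 in the coordinates of the file, 12 CpGs) the levels were 0.758%, 6.46%, 1.50%, 1.67% and 8.43% in paternal high-fat offspring, against 0.463%, 0%, 0.741%, 0.596% and 0.397% in paternal chow offspring. The groups did not overlap, but 22HFB and 6HFBB stood only just apart, and 22HFR and 28HFB were far above the others. The means were 3.76% ± 3.45 in paternal high-fat and 0.439% ± 0.279 in paternal chow offspring (SD, n = 5 each), a difference of 3.32 points with a standard error of 1.35 (limma p = 0.0277 unadjusted, adjusted p = 0.235; exact permutation p = 0.00794). Without 28HFB the difference was 2.16 points.

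Fatty acid genes had 5 regions at 4 genes, 4 of them higher. At intron 1 of Acadl, the long-chain acyl-CoA dehydrogenase, the levels were 3.12%, 0.758%, 2.84%, 0.893% and 1.45% in paternal high-fat offspring, against 0%, 0%, 0.960%, 0.505% and 0% in paternal chow offspring. The groups overlapped by 22HFR, 26HFB and 6HFBB only, and the difference was 1.52 points (standard error 0.562; limma p = 0.0170 unadjusted, adjusted p = 0.235; exact permutation p = 0.0238). Cpt1a, the gate for long-chain fatty acids into mitochondria and a target of hypothalamic fuel sensing studies, had a region 1279 bases upstream with 4.17%, 0%, 0%, 7.58% and 4.83% in paternal high-fat offspring, against 0%, 0%, 0.769%, 1.19% and 1% in paternal chow offspring. In the paternal high-fat group 3 animals lay above every paternal chow animal and 2 were at 0%. Its difference of 2.72 points (limma adjusted p = 0.235) was 1.66 points without 26HFB.

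**Figure D2:**
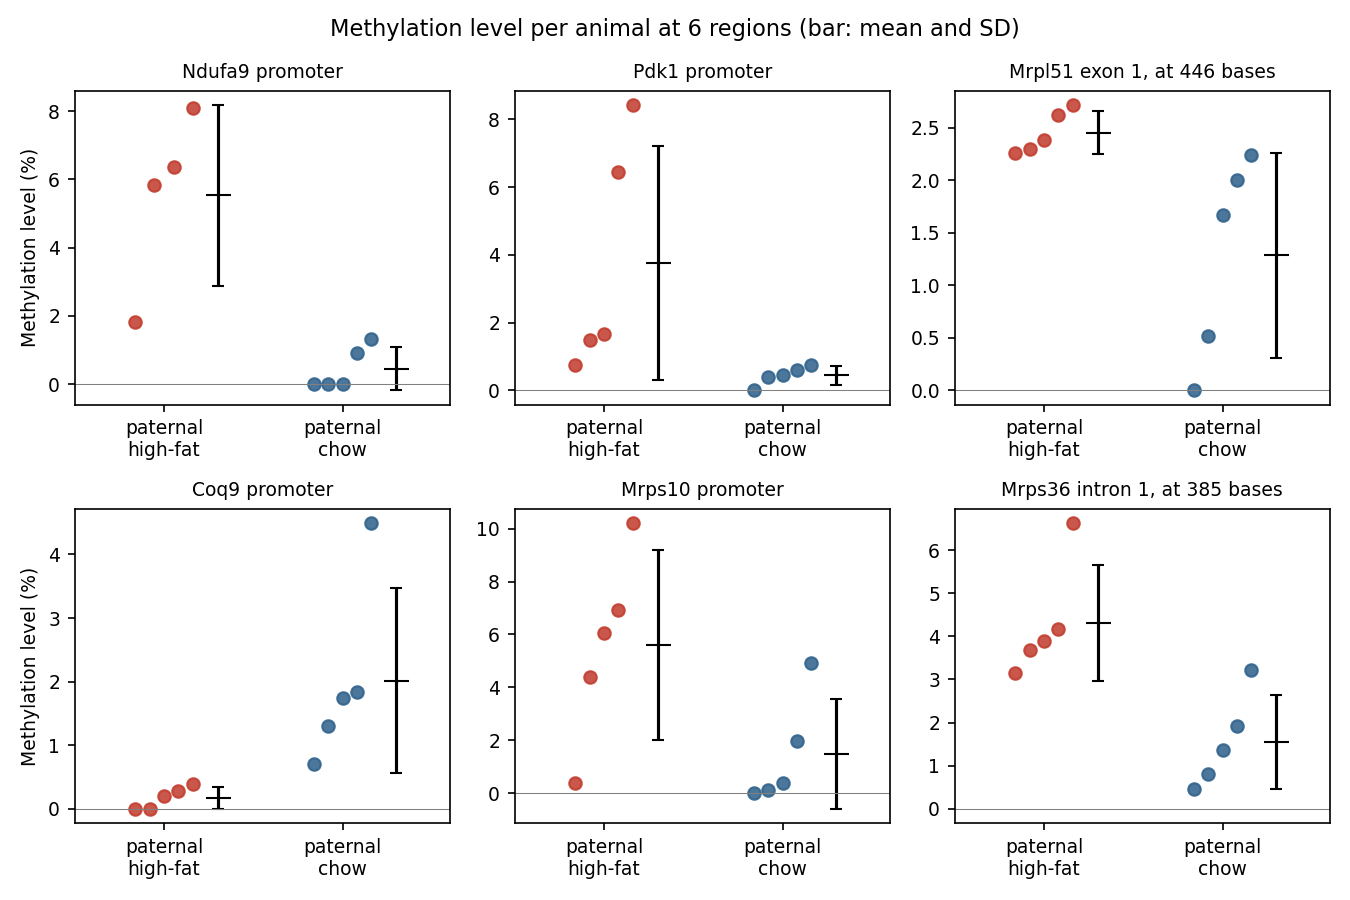
Methylation level in percent on the vertical axis for each animal, paternal high-fat at the left and paternal chow at the right of each panel, with the mean and SD as a bar. The groups do not overlap at Ndufa9, Pdk1, Mrpl51 and Coq9, where Coq9 is lower in paternal high-fat offspring, and overlap at Mrps10 and Mrps36; the paternal high-fat group of Ndufa9 has 4 animals.

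The mitochondrial ribosome was the largest group, with 27 regions at 19 genes, of which 21 had a mean that was higher in paternal high-fat offspring and 6 one that was lower, and a median difference of 1.43 points. The large subunit (Mrpl) had 14 regions at 11 genes, 11 higher and 3 lower, with a median of 1.39 points. The small subunit (Mrps) had 13 regions at 8 genes, 10 higher and 3 lower, with a median of 1.95 points. The shares of higher regions, 78.6% in the large and 76.9% in the small subunit, stand beside 71% of all regions.

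Mrps10 encodes a small subunit protein. At its promoter (chr9:15646363-15646407 in the coordinates of the file, 14 CpGs) the levels were 6.05%, 10.2%, 0.397%, 6.94% and 4.41% in paternal high-fat offspring, against 0%, 4.91%, 1.97%, 0.135% and 0.393% in paternal chow offspring. The groups overlapped through 24HFB, which was as low as the paternal chow animals, and through 4HFB. The means were 5.61% ± 3.60 in paternal high-fat and 1.48% ± 2.07 in paternal chow offspring (SD, n = 5 each), a difference of 4.12 points (standard error 1.61; limma p = 0.0229 unadjusted, adjusted p = 0.235; exact permutation p = 0.0714), and the q-value in the authors' deposited table was 0.0906.

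At Mrpl52, of the large subunit, intron 1 had 2.93%, 2.90%, 5.47%, 5.14% and 3.84% in paternal high-fat offspring, against 1.70%, 0.347%, 1.99%, 1.38% and 3.41% in paternal chow offspring. Only 8HFB reached into the paternal high-fat range. The difference was 2.29 points (standard error 0.938; limma p = 0.0286 unadjusted, adjusted p = 0.235; exact permutation p = 0.0238).

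At 9 genes the table held 2 or more regions, 21 in all, so that the same animals could be read at neighbouring stretches. All regions of a gene were higher in paternal high-fat offspring at 5 of these genes, Idh3a, Mrpl4, Mrpl14, Mrps33 and Mrps36, and the regions went in both directions at 4, Acsl6, Atp5mc3, Mrpl51 and Mrps6. Opposite directions stood as close as 4 bases apart at Atp5mc3, 90 at Mrpl51, 106 at Acsl6 and 238 at Mrps6. Regions of 1 gene share their animals and are not replicates.

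Mrps36, which RefSeq now lists as Kgd4, an adaptor of the oxoglutarate dehydrogenase complex, was counted here with the ribosome by its symbol and had 2 regions in intron 1, 102 bases apart. At the one 385 bases from the start the levels were 3.90%, 6.62%, 3.69%, 3.15% and 4.16% in paternal high-fat offspring, against 1.37%, 1.93%, 0.799%, 3.22% and 0.466% in paternal chow offspring. Only 26HFB and 6HFB crossed. The difference was 2.75 points (standard error 0.958; limma p = 0.0124 unadjusted, adjusted p = 0.235; exact permutation p = 0.0159). The other region, 228 bases from the start, averaged 4.50% ± 1.89 in paternal high-fat and 2.23% ± 2.06 in paternal chow offspring (SD, n = 5 each), a difference of 2.27 points.

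Mrpl51, a large subunit protein, had 2 regions in exon 1. At the one 446 bases from the start (chr4:157706083-157706388 in the coordinates of the file, 11 CpGs) the levels were 2.30%, 2.38%, 2.26%, 2.62% and 2.72% in paternal high-fat offspring, against 0.519%, 0%, 1.67%, 2.24% and 2% in paternal chow offspring. The paternal high-fat animals were close together, and the highest paternal chow animal, 6HFB, was just below them. The means were 2.46% ± 0.202 in paternal high-fat and 1.28% ± 0.974 in paternal chow offspring (SD, n = 5 each), a difference of 1.17 points (standard error 0.715; limma p = 0.124 unadjusted, adjusted p = 0.246; exact permutation p = 0.00794). The neighbouring region, 135 bases from the start, had the opposite direction with 1.60% ± 1.10 in paternal high-fat and 3.18% ± 1.93 in paternal chow offspring (SD, n = 5 each), a difference of -1.59 points, or -0.789 points without 6HFB.

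Mrps6, of the small subunit, had 3 regions. The most upstream, 352 bases before the start, had 12.2%, 2.86%, 0.862%, 0.397% and 8.33% in paternal high-fat offspring, against 0.379%, 2.22%, 1.16%, 0.463% and 0% in paternal chow offspring. Only 22HFB and 28HFB were clearly above the paternal chow animals, and the difference of 4.08 points (limma adjusted p = 0.235) was 2.27 points without 22HFB. The next region, 27 bases before the start, averaged 1.32% ± 0.777 in paternal high-fat and 2.53% ± 2.81 in paternal chow offspring (SD, n = 5 each), with 7.51% in 4HFB. Without 4HFB its difference of -1.21 points was 0.0310 points. At the last, in intron 1, the difference was 1.28 points, 0.645 points without 26HFB and 2.08 points without 2HFB.

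Acsl6, which activates long-chain fatty acids and is abundant in brain, had a lower promoter region, with 0.529%, 0.600%, 0.686%, 0.431% and 2.06% in paternal high-fat offspring, against 0.556%, 1.62%, 1.50%, 3.98% and 5.77% in paternal chow offspring. The difference was -1.82 points, or -1.05 points without 8HFB. Its region in intron 1 was higher by 2.00 points (limma adjusted p = 0.245), with 4.80% ± 2.05 in paternal high-fat and 2.79% ± 1.69 in paternal chow offspring (SD, n = 5 each). At Atp5mc3 a region in intron 1 averaged 1.22% ± 1.31 in paternal high-fat and 2.30% ± 0.819 in paternal chow offspring, and the promoter region 4 bases away averaged 2.79% ± 2.04 in paternal high-fat and 1.68% ± 1.43 in paternal chow offspring (SD, n = 5 each). The difference of the second, 1.12 points, was 0.362 points without 22HFR and 1.74 points without 8HFB.

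At the genes with a single direction the regions overlapped between groups throughout. At Idh3a the promoter region was higher by 1.90 points (1.14 points without 26HFB) and the 2 in intron 1 by 1.07 and 1.48 points, the second of these by 0.717 points without 22HFR. At Mrpl4 the exon 1 region was higher by 1.24 points, which became 0.259 points without 22HFB, whose 6.11% stood above the other 9 animals. The Mrpl4 region in intron 1 had 3.39%, 4.50%, 1.46%, 3.98% and 2.91% in paternal high-fat offspring, against 0.455%, 1.10%, 2.42%, 1.43% and 2.33% in paternal chow offspring, a difference of 1.70 points (limma adjusted p = 0.235).

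**Figure D3:**
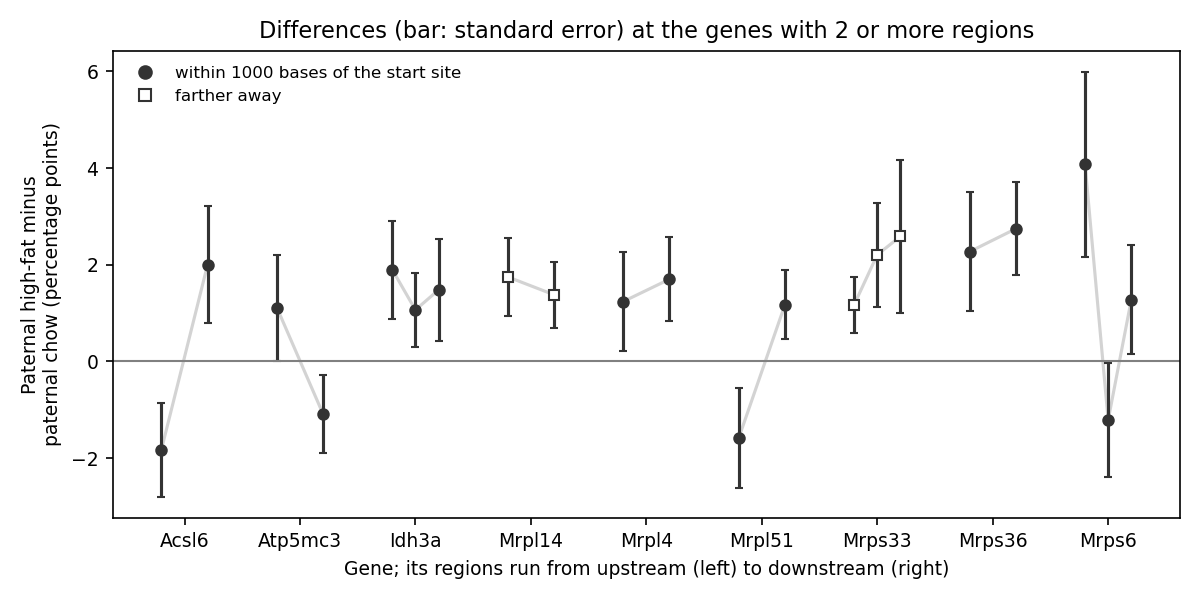
Difference of mean levels, paternal high-fat minus paternal chow, in percentage points on the vertical axis with its standard error as a bar, for the 21 regions of the 9 genes with 2 or more regions, from upstream to downstream within each gene. Filled circles lie within 1000 bases of the start site and open squares farther away; the line of 0 is crossed within Acsl6, Atp5mc3, Mrpl51 and Mrps6.

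Where the regions lay was also compared. Of the 72 regions, 57 (79.2%, against 66.4% of all) were within 1000 bases of the start, and 69 (95.8%, against 81.1%) had a mean level of up to 5%. By the table's annotation 34 lay in promoters, 14 in introns, 10 in exons, 13 in intergenic sequence and 1 at a transcription end. The mean was higher in paternal high-fat offspring at 22 of 34 promoter regions (64.7%, against 70.6% of all promoter regions) and at 40 of the 57 regions within 1000 bases (70.2%, against 70.7%). Beyond 1000 bases it was higher at 13 of 15 (86.7%, against 71.5%). These distant regions are tied to a mitochondrial gene only as the nearest start, and no test of the contrast between near and distant regions was made.

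The 3 regions that were not near 0 were all distant ones tied to ribosomal genes. A region 9937 bases from the start of Mrpl58, in the last exon of another transcript, had 67.6%, 48.3%, 62.0%, 67.4% and 59.1% in paternal high-fat offspring, against 62.4%, 49.2%, 61.5%, 52.8% and 37.6% in paternal chow offspring. Its difference of 8.18 points, the largest positive difference in the set, was 4.40 points without 8HFB (limma adjusted p = 0.251 with all animals). The region 11879 bases from the start of Mrps23, at the end of another transcript, had 34.7%, 41.0%, 36.5%, 41.8% and 46.7% in paternal high-fat offspring, against 55.9%, 48.2%, 49.0%, 47.8% and 41.7% in paternal chow offspring.

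At Mrps23 3 paternal high-fat animals lay below the paternal chow range, 26HFB and 28HFB overlapped with it through 8HFB, and the difference was -8.38 points (standard error 3.84; limma p = 0.0466 unadjusted, adjusted p = 0.235; exact permutation p = 0.0238). An intergenic region 21351 bases from the start of Mrps18a averaged 77.6% ± 6.92 in paternal high-fat and 85.2% ± 7.60 in paternal chow offspring (SD, n = 5 each), a difference of -7.60 points that was named after its value was seen. The 3 regions tied to Mrps33 lay 5264, 57121 and 58547 bases from its start and were higher by 2.59, 2.21 and 1.17 points. Without 26HFB the first was 0.892 points, without 22HFR the last was 0.744 points, and without both 22HFR and 4HFB the second was 1.20 points.

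Both regions tied to Mrpl14 lay 51285 and 50896 bases from its start, 310 bases apart. The second had 1.11%, 5.05%, 2.69%, 2.99% and 1.26% in paternal high-fat offspring, against 0.862%, 0.727%, 0.969%, 1.13% and 0.659% in paternal chow offspring. The groups touched only where 22HFB was just below 6HFB, and the difference was 1.75 points (limma p = 0.0481 unadjusted, adjusted p = 0.235; exact permutation p = 0.0159), or 1.14 points without 22HFR. The first was higher by 1.38 points, or 0.871 points without 26HFB.

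Import and the Chchd family were small groups. Tomm6, a small subunit of the outer membrane translocase, had a lower promoter region, 1.46% ± 0.853 in paternal high-fat and 2.59% ± 2.16 in paternal chow offspring (SD, n = 5 each), a difference of -1.13 points that was -0.384 points without 4HFB and -1.73 points without 8HFB. Of 3 Chchd regions the one at Chchd1 was lower. Chchd5 had 0%, 3.23%, 11.0%, 0% and 1.93% in paternal high-fat offspring, against 0%, 0%, 3.37%, 0% and 0.800% in paternal chow offspring, so its difference of 2.40 points came mostly from 24HFB and was 0.458 points without it. The region 2728 bases upstream of Chchd7 had 0%, 3.36%, 1.10%, 5.33% and 0.799% in paternal high-fat offspring, against 0%, 0%, 0.656%, 0.455% and 0.294% in paternal chow offspring, a difference of 1.84 points, or 1.03 points without 26HFB.

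Over the 70 regions with a value in every animal, the median level per animal was 1.61%, 3.36%, 1.99%, 2.66% and 2.57% in paternal high-fat offspring, against 0.875%, 1.31%, 1.99%, 1.13% and 1.45% in paternal chow offspring. The groups overlapped because 22HFB and 24HFB were below 6HFBB. Over all regions with complete values the corresponding medians averaged 2.73% ± 0.626 in paternal high-fat and 1.70% ± 0.191 in paternal chow offspring (SD, n = 5 each), and over the mitochondrial regions they averaged 2.44% ± 0.670 in paternal high-fat and 1.35% ± 0.418 in paternal chow offspring. These medians describe regions picked for a difference, and no test was made on them.

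The animal with the highest level was counted at each region. Over the 70 complete regions this was 22HFR at 28.6% (27.2% of all complete regions) and 4HFB at 14.3% (13.8%). A split by direction, by itself, places the highest animal mostly in the group with the higher mean. Among the 52 complete regions with a higher mean in paternal high-fat offspring, 22HFR had the highest level of all 10 animals at 20 (38.5%, against 37.6% of such regions in the whole table). Among the 18 with a lower mean, 4HFB had the highest level at 10 (55.6%, against 44.8%). 4HFB was also listed at 0% at 17 of the 72 regions (23.9% of its values, against 20.5% over all regions) and held 82 of the 127 missing averages of the table. Without 22HFR and 4HFB together the median difference was 1.20 points and 75% of the regions were higher. Whether depth or batch moved with these animals was not tested, since neither is given.

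**Figure D4:**
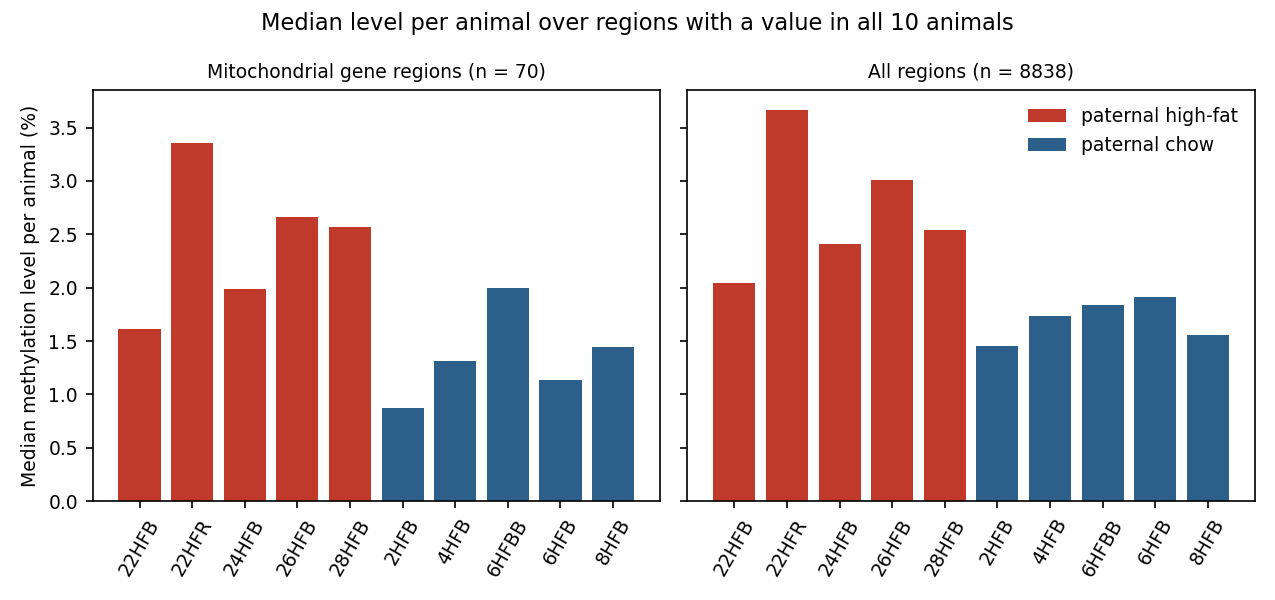
Median methylation level per animal in percent, as bars from 0, over the 70 mitochondrial regions with complete values in the left panel and over all 8838 complete regions in the right panel, with paternal high-fat animals left of paternal chow animals. 22HFR is the highest in both panels, and the groups overlap in the left panel only, through 22HFB, 24HFB and 6HFBB.

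Other genes of mitochondrial function were read in the same table from a list of 121 genes outside the naming rule, of which 39 had 54 regions. The mean was higher in paternal high-fat offspring at 39 of these regions and lower at 15, with a median difference of 1.32 points. By limma 0 had an adjusted p below 0.05 and 9 an unadjusted one (20.9% of all regions). The groups did not overlap at 2 (5.15% of all regions), in an exon of Polg2, the accessory subunit of the mitochondrial DNA polymerase, and at the promoter of Fis1, a fission factor, both higher in paternal high-fat offspring and both named after their values were seen. Genes of mitochondrial biogenesis, the regulators and the machinery of mitochondrial DNA, had 21 regions at 11 of 21 genes, 14 higher and 7 lower. Genes of proteases, chaperones and import had 10 regions, 8 higher and 2 lower, and the remaining citrate cycle genes had 8 regions, 6 higher and 2 lower.

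The tissue label could not be checked by methylation levels alone. Of 37 marker genes of the cell types that the dissected tissue could hold, 10 had 18 regions. The mean was higher in paternal high-fat offspring at 13 of them, and over the whole table at 71% of regions. Oligodendrocyte markers had 5 of 7 regions higher, with a mean level per animal of 19.2% to 22.8% in paternal high-fat and 15.3% to 19.4% in paternal chow offspring. That mean spans regions of very different levels. The largest difference was at an Mbp exon, with means of 71.3% in paternal high-fat and 57.0% in paternal chow offspring. The lower regions, at Olig2, had differences of -1.5 and -2.6 points. These genes were named after their values were seen. Neuron markers had 6 of 8 higher, with 11.5% to 16.3% in paternal high-fat and 10.9% to 11.7% in paternal chow offspring. The 2 regions of the astrocyte and tanycyte markers were higher, and no microglia marker had a region. The 1 region from the vessel and pituitary list, at Pomc, was lower; Pomc also defines a neuron type of the arcuate nucleus itself, so its region does not stand for vessel or pituitary cells. Whether cell composition has a part in the differences was not tested.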

How the data were processed

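DNA of the arcuate nucleus of 10 offspring went into Zymo-Seq libraries, per the labels' protocols, and the tools named for the reads are Bismark, Bowtie and Trim Galore, per the submitters' processing notes. Regions had been called with metilene between the groups, per the file headers. The build is not given in the sources used here, nor are tool versions, conversion rate, minimum coverage or settings of metilene. Coordinates are printed as deposited. The deposited values per region were each animal's averaged methylation fraction, the mean fraction per group, a score that is the difference of these means, a q-value, and 2 p-values (Mann-Whitney; Kolmogorov-Smirnov in 2 dimensions), all by the authors. The authors also deposited the count of CpGs per region, at least 10, and how far it lies from the nearest start site. At 109 of the 8957 regions, none of them among the 72, this count exceeds the CG that fit in the span, so it may count both strands. No deposited difference was under 1 percentage point.

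Fractions were turned into percent. The group of each column comes from a header line above it; column names match no sample's title. The columns served as 5 replicates per group without replicate numbers, and 0 columns of levels were left unused. Depth is unknown, so errors cover the spread between animals only. All regions were fitted together with limma 3.58.1 in R 4.3.3 (trended empirical Bayes variances) and adjusted by Benjamini-Hochberg at 0.05. A two-sided exact permutation test over 252 arrangements (126 where a value was missing) was made per region. The limma fit was first run on simulated levels with normal noise. These were neither bounded at 0 nor selected for a difference, so they do not measure its power on the deposited levels. Python 3.11.15, pandas 2.3.3, SciPy 1.17.1 and matplotlib 3.10.9 were used. Of the 60 gene symbols 59 matched the RefSeq table of GRCr8 and 1 matched a synonym; 1 promoter on another chromosome was left out.

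Genes were grouped by symbol. Regions were named with their values if they had an adjusted p or a deposited q below 0.05 or no overlap of the groups, if they were among the next 12 by limma p, if their gene had 2 or more regions, or if they had the smallest p or the largest difference of their role group. The members and the lists were chosen with earlier results of these data known. Alternatives tried were the logit scale (offset 0.01), other variance settings, subsets of regions, averaged columns where names share their leading number, the other deposited p-values, leaving out each animal, and, chosen after seeing the data, leaving out 22HFR and 4HFB together. The values of 1 member region are not reported here.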

Additional observations from a re-analysis of the deposited data

Results flagged for a closer look

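Of 88 groups of 4 or 5 animals examined, at the named regions and for the summaries per animal, 7 held an animal that stood apart by Dixon's criterion, and chance alone flags about 1 in 20 groups. In the paternal high-fat group this was 28HFB at the Acsl6 promoter region, at 2.06% against 0.686% in the nearest animal. The other 6 were in the paternal chow group. At Mrps6, 4HFB had 7.51% in the promoter region 27 bases before the start, and 2HFB had 4.55% in the intron 1 region. 8HFB had 6.24% at Uqcrc2 and 4.20% at the Atp5mc3 promoter region. 6HFBB had 3.37% at Chchd5 and 3.59% at the Mrps33 region 57121 bases away. At Mrps6 (27 bases before the start) and Uqcrc2, the direction of the difference rested on the animal concerned.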

How the results depend on the processing

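By limma 0 regions passed at 0.05 under every alternative run. Leaving out 1 animal at a time gave 72.2% to 75% higher mitochondrial regions, a median difference of 1.22 to 1.64 points, 7 to 18 regions at an unadjusted limma p below 0.05 (18 without 22HFB) and 4 to 10 without overlap (10 without 6HFB, 8 without 22HFB and 7 without 6HFBB), where smaller groups overlap less easily. Over all regions 15.5% to 23.1% then had an unadjusted p below 0.05 and 7.48% to 9.79% did not overlap. Without 22HFB the share below 0.05 was 25% of mitochondrial and 23.1% of all regions. The share without overlap was 13.9% of mitochondrial and 8.28% of all regions without 6HFB, 11.1% and 9.79% without 22HFB, and 9.72% and 8.69% without 6HFBB. With at least 15 CpGs, 12 regions were left, of which 1 had an unadjusted p below 0.05 and 0 did not overlap, against 25.1% and 6.79% of all 1635 regions of that size. With an absolute difference of at least 2 points, 20 were left, of which 85% were higher, with a median of 2.48 points, 6 at an unadjusted p below 0.05 (30%) and 2 without overlap (10%). Of all 3568 regions past that difference, 76% were higher, with a median of 2.51 points, 28.9% had an unadjusted p below 0.05 and 7.99% did not overlap. Averaging columns with the same leading number gave 13 regions without overlap, 18.1% of mitochondrial and 14.9% of all regions. Adjusting the authors' deposited Mann-Whitney p gave 45 mitochondrial regions below 0.05 (62.5%, against 58.3% of all regions). The Kolmogorov-Smirnov p gave 29 (40.3%, against 33.8% of all), and the deposited q gave 1. The deposited Mann-Whitney p was 3.95e-08 at Mrps10, where the groups overlap, while an exact test across these animals allows none below 0.00794. The units of this p were therefore not the animals, and the regions had already been selected for a difference. The 45 regions do not stand as passing a test across animals. The units of the Kolmogorov-Smirnov p were not established. The logit scale gives no median in points.

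Of 696 alternatives for 42 named regions, 693 kept direction and side of the threshold, with a lowest adjusted p of 0.134, and 3 turned the direction. Other variance settings and subsets of regions leave a difference unchanged, so those alternatives could not turn it. The limma adjusted p of the main fit was at least 0.235, far from the threshold. The 693 is therefore no measure of stability. At Mrps6, 27 bases before the start, the difference was -1.62 to 0.0310 points with 1 animal left out, above 0 only without 4HFB, and 0.106 points without 22HFR and 4HFB together. At Uqcrc2 it was -1.55 to 0.0122 points, above 0 only without 8HFB. Without 1 animal 23 further named regions kept their direction but moved by more than 1.5 times. No paired analysis was possible because the columns carry no replicate numbers. Unknown depth limits every level near 0.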
